A study of Mus musculus with 4 samples.

Results

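The genes described here encode 10 checkpoint and activation receptors of lymphocytes: Pdcd1, Lag3, Tigit, Havcr2, Ctla4, Icos, Tnfrsf4, Tnfrsf9, Tnfrsf18 and Cd69. They were chosen by name, without a threshold on their values, and all 10 were found as single rows among the 32285 genes of both expression matrices. The cells were taken from subcutaneous tumours of MC38, a colon carcinoma cell line of the mouse, in female C57BL/6 hosts aged 12 to 16 weeks. The control hosts were Prdm1 f/f, and the knockout hosts were Prdm1 f/f CD19cre, in which Cre under a B lineage promoter acts on the floxed Prdm1 allele that both groups carry. Prdm1 encodes Blimp-1, the transcriptional repressor that B cells need to become plasma cells. Tumours of 11 recipients per genotype were collected on day 18, and each genotype gave 1 pooled droplet library of 5′ transcript ends. The libraries carry different date stamps, so genotype and library date cannot be told apart, and with 1 library per genotype there is no replicate and no test between them.

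These receptors are switched on, or raised, when a lymphocyte meets its antigen or an activating ligand. PD-1 (Pdcd1), LAG-3 (Lag3), TIGIT (Tigit), TIM-3 (Havcr2) and CTLA-4 (Ctla4) dampen the response and are often found together on T cells with persistent antigen in tumours. ICOS (Icos), OX40 (Tnfrsf4), 4-1BB (Tnfrsf9) and GITR (Tnfrsf18) give costimulatory signals, while CD69 (Cd69) appears early after activation and keeps cells in tissue by pulling down the sphingosine-1-phosphate receptor.

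The control library held 816 barcodes with a median of 5851 transcript molecules (UMIs) and the knockout library 897 with a median of 3966, and 804 and 863 were kept. The cells had been sorted as B220+ or CD138+ and then combined, in proportions the labels do not give, so shares of cell classes follow the sort. How NK and T cells passed that gate is not shown by these data. Sdc1, the gene of CD138, had 34 and 22 UMIs in the γδT17-like cells of the control and knockout library and 0 and 0 in the NK-like cells. Classes were rebuilt from the expression matrix with the 10 receptor genes and the immunoglobulin genes left out of the clustering. Each class is called after the markers it held, and differences between classes may depend on these rebuilt names. The 2 libraries are named by their labels: Prdm1 itself had 1 UMI in control and 16 in knockout B-like cells, a count of 5′ ends that does not check the deletion, since the sources used here do not say which exons are floxed.

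The NK-like cells numbered 158 in the control and 302 in the knockout library and held 1314 and 1444 UMIs of Ncr1, the NK receptor gene. They fell into a granzyme-high set led by granzymes C to F (70 and 126 cells), a granzyme-low set (61 and 85), an interferon-response set (22 and 36) and another set with Itga1 and Tnfsf10 among its leading genes (5 and 55). The γδT17-like cells (34 and 36) split into a Trdv4-led part of 16 and 22 cells, with 20 and 31 Il17a UMIs, and a Ramp1-led part of 18 and 14 cells with no Il17a UMI and 19 and 11 UMIs of the αβ receptor gene Trac. The second part therefore did not carry the interleukin 17 or Trdv4 signature of the class name. The other T-like cells (35 and 38) split into a Cd8-led part of 24 and 8 cells with 508 and 125 Cd8a UMIs, and a remainder of 11 and 30 cells. That remainder also held 113 and 268 UMIs of Fcer1g and 20 and 62 of Cd79a, genes of NK and myeloid cells and of B cells. B-like cells numbered 239 and 287, and plasma-like cells 47 in the control and 0 in the knockout library.

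Levels below are UMIs of a gene summed over the cells of a class, per 1000000 UMIs of that class (CPM). Their intervals are exact Poisson intervals at 95%, those of a ratio are exact conditional binomial intervals, and those of a share of cells are exact Clopper-Pearson intervals. All of them cover counting error only, not variation between cells or mice. Levels are compared between classes for 1 gene at a time, since 5′ counts do not put different genes on 1 scale per length. A gene is called at least 2-fold apart only where it had at least 20 UMIs over the groups compared, a count of 0 being set at 3 counts. For 7 of the 10 genes, namely Pdcd1, Tigit, Ctla4, Icos, Tnfrsf4, Tnfrsf9 and Tnfrsf18, the class with the highest level was an NK-like, T-like or γδT17-like one in both libraries. The share of all genes that peaked in such classes was not computed. This count therefore only lists where the genes peaked and sets them apart from no other genes. Among whole classes, Lag3 peaked in plasmacytoid dendritic-like cells in the knockout library, Havcr2 in macrophage-like cells and Cd69 in mast cell or basophil-like cells. Taken alone, the Cd8-led part of the knockout T-like cells stood higher for Lag3, at 884 CPM against 438 CPM in plasmacytoid dendritic-like cells.

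**Figure D1:**
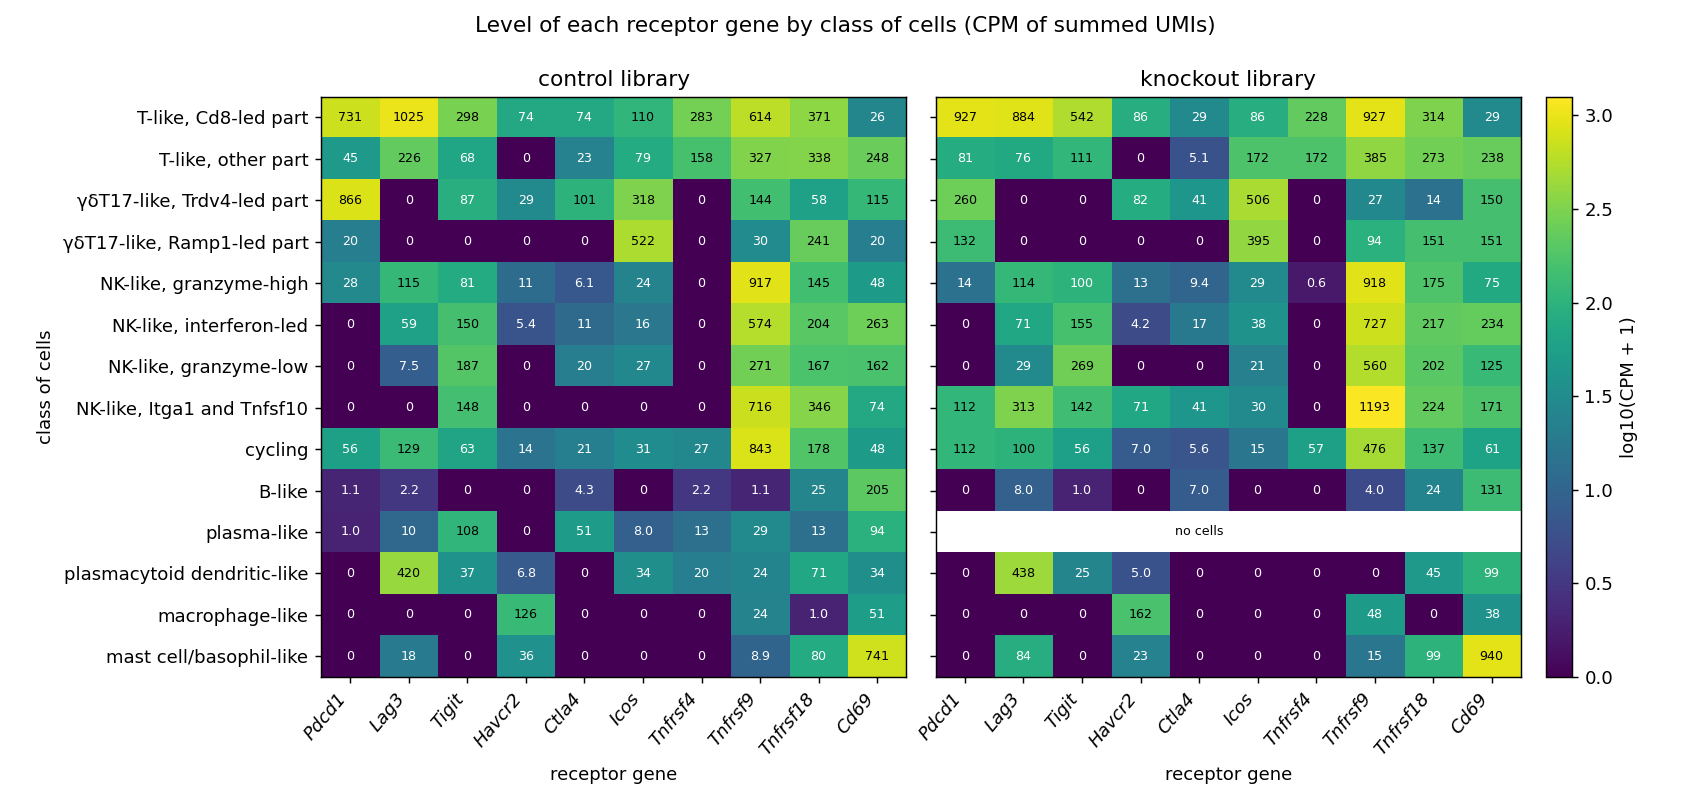
Level of each receptor gene (columns) in each class of cells (rows) in the control and the knockout library, as CPM of summed UMIs printed in each cell, with colour on a log10(CPM + 1) scale. Columns are to be read 1 at a time: Pdcd1 stands at 731 and 927 CPM in the Cd8-led T-like cells and at 1.1 and 0 CPM in the B-like cells.

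The Cd8-led T-like cells carried the checkpoint set together. Pdcd1, the PD-1 gene, had 199 UMIs (731 CPM, 633–840) in control cells and 65 (927 CPM, 716–1182) in knockout cells. Lag3, whose product binds MHC class II, had 279 UMIs (1025 CPM, 909–1153) and 62 (884 CPM, 678–1134). Every control cell of this part, 24 of 24, and 7 of the 8 knockout cells held UMIs of both genes. Tigit, the receptor for the poliovirus receptor family, stood at 298 CPM (236–370) and 542 CPM (384–744), from 81 and 38 UMIs. Havcr2 (20 and 6 UMIs) and Ctla4 (20 and 2 UMIs) were detected in fewer cells. At least 3 of the 5 inhibitory receptor genes were seen in 24 of 24 control and 6 of 8 knockout cells.

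The costimulatory receptors were present in the same cells. Tnfrsf9 had 167 and 65 UMIs, 614 CPM (524–714) and 927 CPM (716–1182), and Tnfrsf18 had 101 and 22 UMIs. Tnfrsf4, the OX40 gene, stood at 283 CPM (223–354) and 228 CPM (131–371). Cd69 had 7 and 2 UMIs only, so these cells combined high checkpoint levels with little of the early activation gene.

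Against the granzyme-high NK-like cells, the other large cytotoxic class, 7 of the 10 genes were at least 2-fold higher in the Cd8-led T-like cells in both libraries, where 9.17% of all 8113 genes tested were. None of the 10 was at least 2-fold lower in both, against 1.39% of all genes. Pdcd1 was 26.0-fold higher in the control and 67.6-fold in the knockout library, and Lag3 8.92-fold and 7.75-fold. Tigit (3.69-fold and 5.43-fold), Havcr2 (6.43-fold and 6.53-fold), Ctla4 (12.1-fold and 3.05-fold) and Icos (4.67-fold and 2.98-fold) were also higher. The knockout values of Ctla4 rest on 2 UMIs and their interval (0.338–13.1) includes 1. Tnfrsf4 separated the classes furthest: it had no UMI in the control NK-like cells of this set, which allows up to 2.29 CPM, and 1 UMI in the knockout, so that it was at least 124-fold higher in the control T-like cells and 366-fold (56.8–15341) in the knockout.

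Tnfrsf9 did not follow that pattern, with a T-like to NK-like ratio of 0.669 (0.566–0.788) in the control and 1.01 (0.775–1.29) in the knockout library. Tnfrsf18 was 2.55-fold and 1.79-fold higher in the T-like cells. Since depth per cell differed (medians of 10015 and 7409.5 UMIs in the T-like part, 18012 and 12062.5 in the NK-like set), cells were also thinned to 1500 UMIs each. At that depth, at least 2 of the 5 inhibitory genes were seen in 15 of 24 control and 5 of 7 knockout T-like cells, and in 2 of 70 and 3 of 126 granzyme-high NK-like cells.

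**Figure D2:**
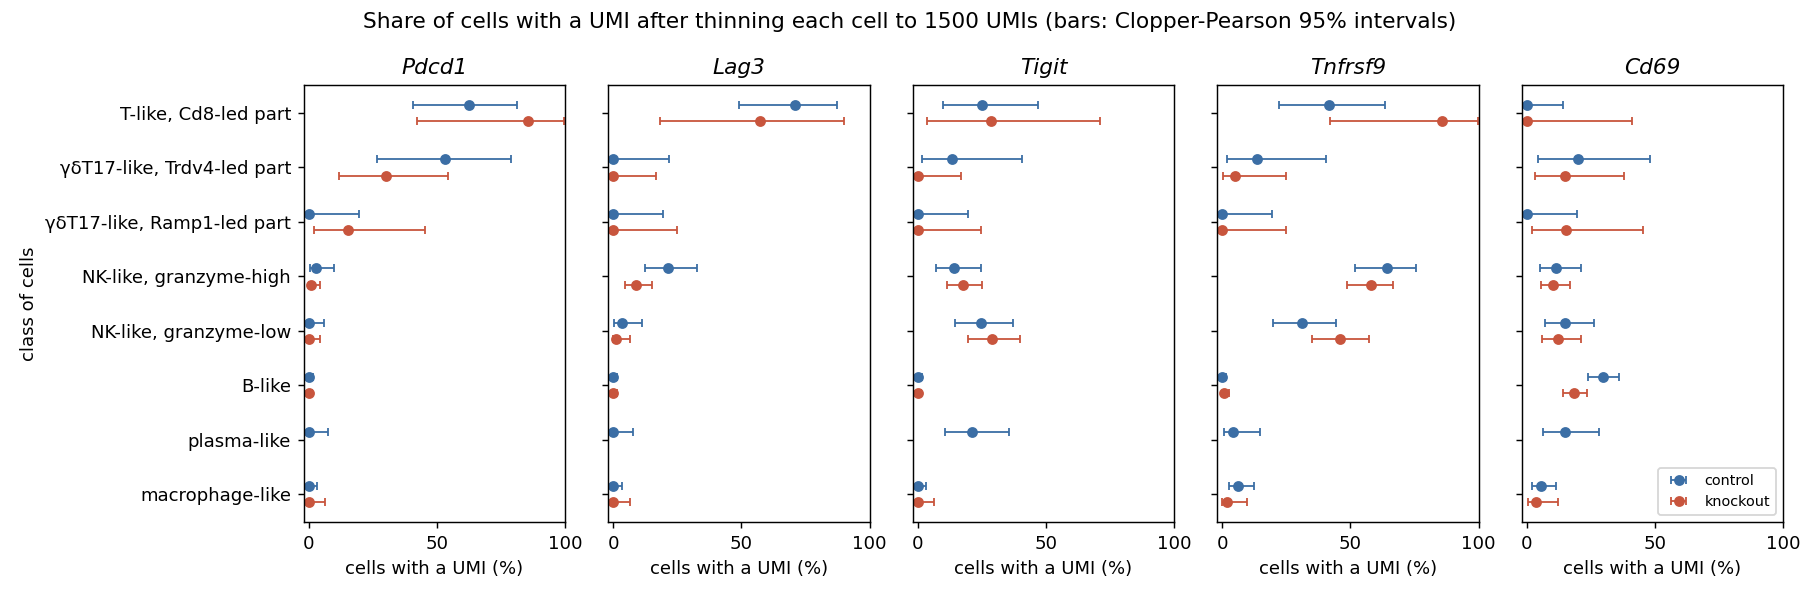
Share of cells with a UMI of 5 receptor genes (x axis, percent) by class (y axis) after each cell was thinned to 1500 UMIs, with Clopper-Pearson 95% intervals, control in blue and knockout in red. Pdcd1 reached 62.5% and 85.7% of the Cd8-led T-like cells and 0% of the B-like and macrophage-like cells.

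Thinned shares with a Pdcd1 UMI were 62.5% (40.6–81.2) and 85.7% (42.1–99.6) in the Cd8-led part, against 100% and 87.5% before thinning. In macrophage-like cells, a class that should lack most of these receptors, Pdcd1, Lag3, Tigit, Ctla4, Icos and Tnfrsf4 had no UMI in any of 116 control and 59 knockout cells at medians of 8327 and 6920 UMIs, and 3 counts, the limit used here for a count of 0, would be shares of 2.59% and 5.08%. Other genes were found there: Tnfrsf9 had 23 UMIs in 8 control cells and 19 UMIs in 3 knockout cells, and Gzmc, a granzyme gene of the NK-like cells, 2 UMIs in 2 and 16 UMIs in 13 cells. The share of such UMIs that comes from free RNA was not tested.

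The remaining T-like cells differed from the Cd8-led part in the opposite sense for Cd69. Pdcd1, Lag3, Tigit, Havcr2 and Ctla4, all 5 inhibitory genes, were at least 2-fold higher in the Cd8-led part in both libraries, against 4.4% of genes tested. Pdcd1 was 16.2-fold (6.24–60.1) and 11.4-fold (6.55–21.2) higher. The Ctla4 folds of 3.26 (0.792–28.8) and 5.64 (0.293–332) rest on few counts, and both intervals include 1. Cd69 was the 1 gene at least 2-fold lower in the Cd8-led part, against 4.4% of genes in that direction too: it was 9.64-fold (3.98–26.7) and 8.34-fold (2.18–70.9) higher in the remainder. Of the 34 Tnfrsf4 UMIs of the knockout remainder, 33 came from 1 cell. That cell also held 28 Icos, 12 Tigit, 3 Foxp3 and 2 Cd4 UMIs, and it was the only T-like cell with a Foxp3 UMI, the regulatory T cell factor.

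The γδT17-like class held another combination, with Icos and Pdcd1 but no Lag3. It is described here together with its Ramp1-led part, 18 of 34 control and 14 of 36 knockout cells, which lacked the Il17a and Trdv4 signature. Over the whole class Icos, the costimulator related to CD28, had 74 UMIs (438 CPM, 344–550) in control cells and 58 (459 CPM, 349–594) in knockout cells, the highest level of any class in either library. It was seen in 24 of 34 and 23 of 36 cells. Icos and Cd69 were at least 2-fold higher than in the Cd8-led T-like cells in both libraries, where 7.75% of genes were. Icos stood 3.97-fold (2.57–6.29) and 5.37-fold (2.32–15.2) higher, and Cd69 2.30-fold (0.791–7.12) and 5.28-fold (1.27–46.7). Lag3, Tigit, Tnfrsf4, Tnfrsf9 and Tnfrsf18 were at least 2-fold lower, against 5.3% of genes. Lag3 and Tnfrsf4 had no UMI in either library, which allows up to 17.8 and 23.8 CPM.

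Pdcd1 in this class sat mostly in the Trdv4-led part. There it had 60 UMIs in control cells (866 CPM, 661–1115) and 19 in knockout cells (260 CPM, 157–406). The control interval overlaps that of the Cd8-led T-like cells. In the Ramp1-led part Pdcd1 had 2 and 7 UMIs, so the Trdv4-led part was 43.1-fold (11.4–364) higher in the control and 1.97-fold (0.794–5.55) in the knockout library. None of the 5 genes with enough UMIs was at least 2-fold higher in the Trdv4-led part in both libraries, where 3.06% of genes were. Tnfrsf18, the GITR gene, was at least 2-fold lower there, against 2.39% of genes: its 4 and 1 UMIs compared with 24 and 8 in the Ramp1-led part. Icos was shared by both parts, with 22 and 37 UMIs in the Trdv4-led part and 52 and 21 in the Ramp1-led part.

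**Figure D3:**
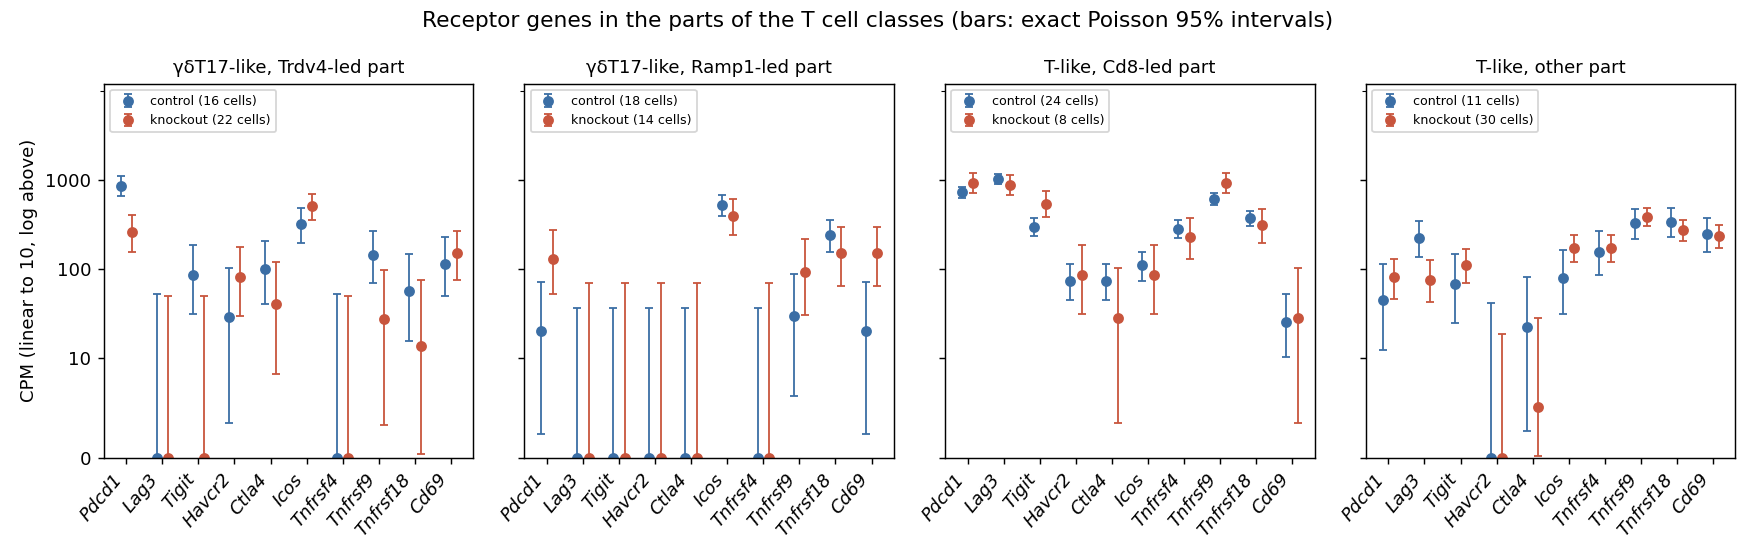
Level of each receptor gene (CPM, linear to 10 and log above) in the 2 parts of the γδT17-like and of the T-like cells, with exact Poisson 95% intervals, control in blue and knockout in red. Lag3 is at 0 in both γδT17-like parts, Cd69 is lowest in the Cd8-led part among the T-like cells, and Pdcd1 in the Trdv4-led part is at 866 CPM (control) and 260 CPM (knockout).

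NK-like cells were the main source of Tnfrsf9 and Tnfrsf18 in the libraries. Of all Tnfrsf9 UMIs they held 61.9% (control) and 79.0% (knockout), and of all Tnfrsf18 UMIs 46.5% and 65.5%. In the granzyme-high set Tnfrsf9, the 4-1BB gene, had 1204 and 1472 UMIs, 917 CPM (866–970) and 918 CPM (872–966), and was seen in 69 of 70 and 123 of 126 cells. It stood at 574 and 727 CPM in the interferon-response set, and in the granzyme-low set at 271 CPM (223–327) and 560 CPM (486–640.5). Tnfrsf18 varied little across these sets, with control levels of 145 to 204 CPM and knockout levels of 175 to 217 CPM, and its granzyme-high to granzyme-low ratios were 0.873 and 0.866.

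Lag3 and Tigit went opposite ways along the granzyme axis. Lag3 had 151 and 183 UMIs in the granzyme-high set and 3 and 11 in the granzyme-low set, a 15.4-fold (5.17–75.5) and 3.90-fold (2.13–7.94) difference. It was the 1 receptor gene of 9 tested that was at least 2-fold higher in both libraries, against 2.74% of all genes. Tigit was the 1 gene at least 2-fold lower in both, against 5.23% of all genes, with 81 and 100 CPM in the granzyme-high set and 187 and 269 CPM in the granzyme-low set. The granzyme-low set thus held 2.31-fold (1.70–3.14) and 2.70-fold (2.08–3.48) more of it. Thinned to equal depth, the Lag3 shares were 21.4% and 8.73% in the granzyme-high set and 3.28% and 1.20% in the granzyme-low set, and the Tigit shares were 14.3% and 17.5% against 24.6% and 28.9%. Before thinning, Tigit had been seen in 60.0% and 57.9% of granzyme-high and 49.2% and 58.8% of granzyme-low cells, at median depths of 18012 and 12062.5 against 5646 and 4197 UMIs.

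Pdcd1 and Havcr2 had no UMI in the granzyme-low set of either library, which allows up to 7.47 and 7.99 CPM, and low counts in the granzyme-high set. Pdcd1 there came from 6 control cells (37 UMIs) and 3 knockout cells (22 UMIs), and 19 of the 22 came from 1 cell. The T cell gene Cd3e had 22 and 48 UMIs in this set. Without the 18 and 21 cells that held a Cd3d, Cd3e or Cd3g UMI, Pdcd1 kept 17 UMIs in 4 cells and 19 UMIs in 1 cell. Cd69 was 3.37-fold higher in the granzyme-low than in the granzyme-high set of the control library and 1.67-fold in the knockout.

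The NK-like set with Itga1 and Tnfsf10 among its leading genes had 5 control and 55 knockout cells, so genotypes were not compared within it. Macf1 and Ptprc led it, with Kmt2a, Mki67, Malat1 and mt-Cytb also among its leading genes, and its knockout cells had a median of 2105 UMIs, against 12062.5 in the granzyme-high set. The part of this low depth in their levels was not tested. The 5 control cells held 1 Itga1 and 2 Tnfsf10 UMIs, the knockout cells 77 and 70. In the 55 knockout cells Tnfrsf9 reached 1193 CPM (1034–1370), the highest level of any class there, Lag3 313 CPM (234–410), Pdcd1 112 CPM (67.6–175) and Havcr2 70.9 CPM (36.6–124). After removal of 12 cells with Cd3 UMIs, Lag3 stood at 239 CPM, Pdcd1 at 30.8 CPM and Tnfrsf9 at 1124 CPM.

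B-like cells lacked most of the set. Tigit had 0 and 1 UMIs, Havcr2 and Icos 0 in both libraries, Pdcd1 1 and 0, Tnfrsf9 1 and 4, and Tnfrsf4 2 and 0. T-like cells were at least 2-fold higher than B-like cells in both libraries for 8 of the 10 genes, against 8.57% of genes, and lower for none, against 7.39%. NK-like cells were higher for 7 of 9 genes tested, against 11% of genes, and lower for none, against 9.78%. The exceptions were Ctla4, which had 4 and 7 UMIs in the B-like cells, and Cd69.

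Cd69 was the 1 member at substantial level in B-like cells. It had 190 UMIs (205 CPM, 177–237) in control and 132 (131 CPM, 110–156) in knockout cells, a ratio of 0.639 (0.507–0.802). UMIs were seen in 116 of 239 and 82 of 287 cells, and in 29.8% (24.0–36.1) and 18.4% (14–23.5) after thinning. Macrophage-like cells, which can carry Cd69 themselves, stood at 51.5 and 37.9 CPM. The B-like cells changed in composition: a cluster of 170 control and 108 knockout cells held 266 and 178 CPM of Cd69, a second cluster of 56 and 161 cells held 117 and 90.1 CPM, and the remaining cluster of 13 and 18 cells held 217 and 248 CPM (12 and 27 UMIs). Within the first cluster the ratio was 0.668 (0.472–0.932), and within the second 0.769 (0.506–1.18). B-like cells also held 6 and 149 UMIs of Gzmc, and without the 8 and 74 cells with a Gzmc or Cd3 UMI the Cd69 ratio was 0.643.

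Plasma-like cells, present in the control library alone, held a second set of receptors. Tigit had 108 UMIs (108 CPM, 88.9–131) in 30 of 47 cells, at least 33.4-fold above B-like cells. Ctla4 had 51 UMIs in 20 cells, an 11.8-fold (4.35–45.1) difference. Of 5 genes tested, Tigit, Ctla4 and Tnfrsf9 were at least 2-fold higher than in B-like cells, against 8.19% of genes, and Cd69 lower, against 50.9%. Tnfrsf9 (29 UMIs) and Tnfrsf4 (13 UMIs) came mostly from 1 cell each, with 25 and 12 UMIs. The plasma-like cells also held 23, 19 and 24 UMIs of Cd3d, Cd3e and Cd3g and 3 of Foxp3. Without the 4 cells that held Cd3 UMIs, Tigit kept 96 UMIs in 27 of 43 cells and Ctla4 37 in 18 cells, while Tnfrsf9 kept 2 and Tnfrsf4 none.

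**Figure D4:**
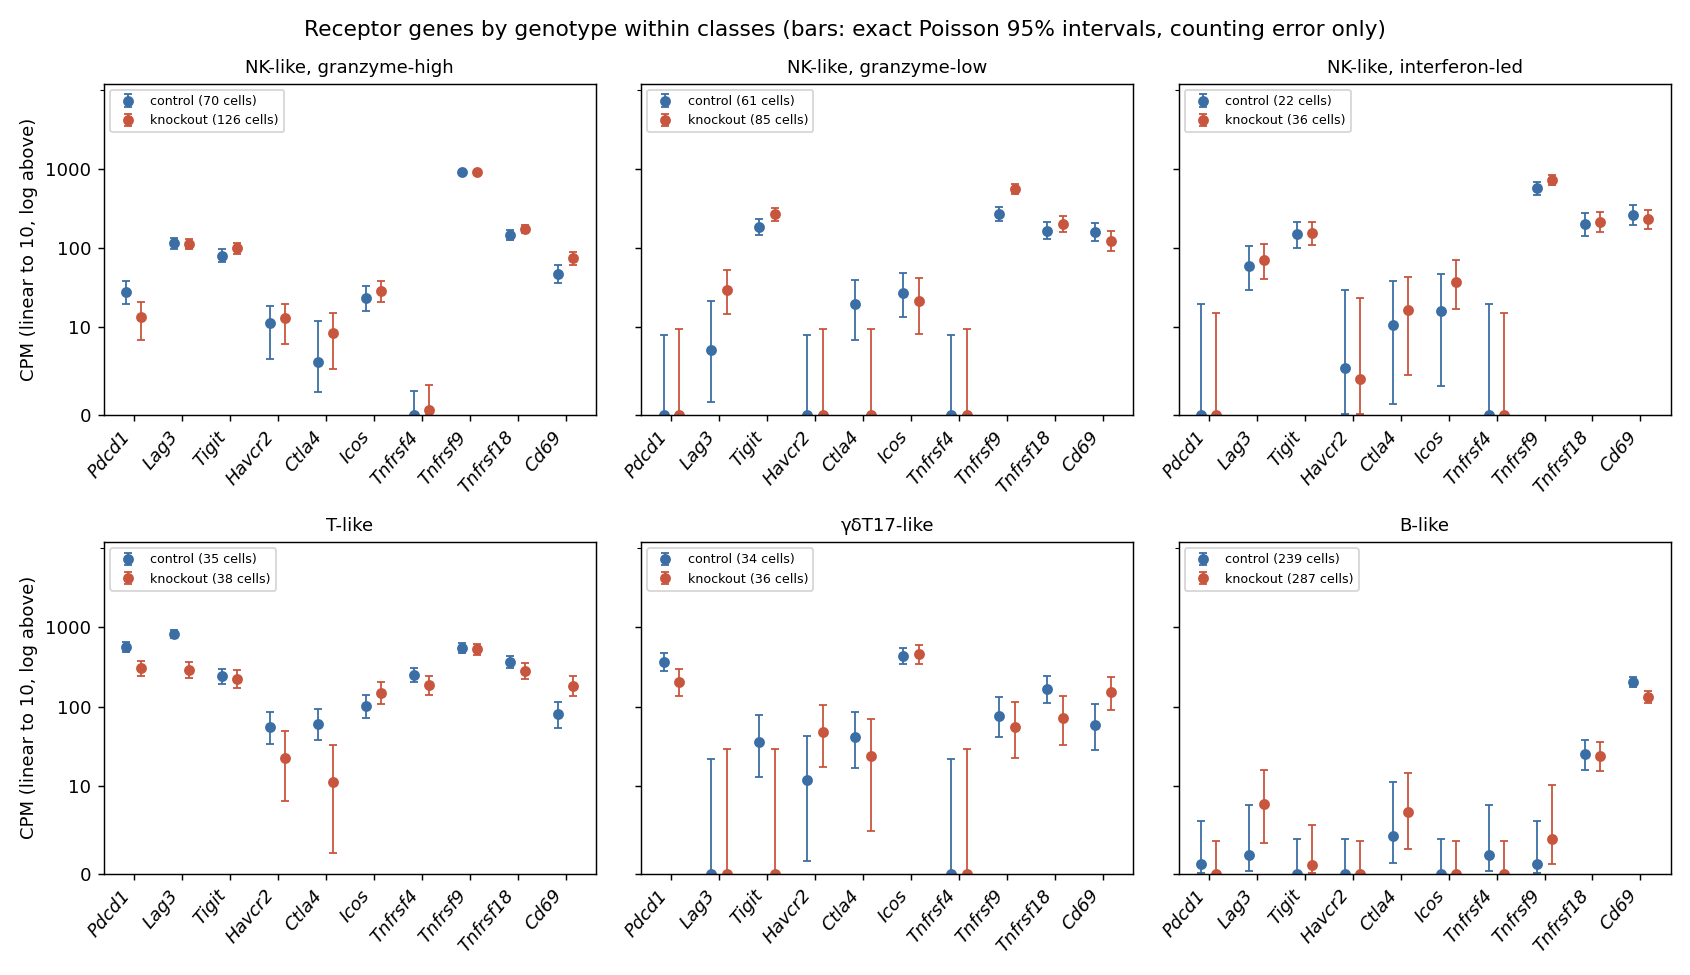
Level of each receptor gene (CPM, linear to 10 and log above) by genotype within 6 classes, with exact Poisson 95% intervals, control in blue and knockout in red. In the granzyme-high NK-like cells Tnfrsf9 stands at 917 and 918 CPM, in the granzyme-low cells at 271 and 560 CPM, and in the B-like cells Cd69 at 205 and 131 CPM.

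Between genotypes, the granzyme-high NK-like cells had 1 of 9 receptor genes tested at least 2-fold apart, where 3.41% of all genes were. It was Pdcd1, with a knockout to control ratio of 0.487 (0.274–0.848). The ratio became 0.107 without the Pdcd1 UMIs of the cell that held most of them in each library. That cell's other UMIs stayed in the class total, here and in all such ratios below. Without cells holding Cd3 UMIs the Pdcd1 ratio was 0.799. Tnfrsf9 had a ratio of 1.001 (0.927–1.08) and Lag3 of 0.993 (0.796–1.24). The thinned share of these cells with a Lag3 UMI, given above, was nevertheless lower in the knockout library. Cd69 was higher in the knockout library at 1.56 (1.14–2.15), short of 2-fold. In the granzyme-low set 1 of 4 genes tested passed, against 6.21% of genes: Tnfrsf9, at 2.06 (1.63–2.62). That ratio was 1.38 at a coarser clustering (resolution 0.5), 1.62 at a finer one (resolution 2), 1.97 with every cell weighted equally and 1.88 without cells holding Cd3 UMIs, all under 2-fold. There Tigit was 1.44 (1.06–1.97). Median depth differed between the libraries in that set, at 5646 and 4197 UMIs per cell, and the thinned Tnfrsf9 shares were 31.1% (19.9–44.3) and 45.8% (34.8–57.1). In the interferon-response set none of 5 genes was 2-fold apart, against 6.55% of genes.

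In the γδT17-like cells 2 of 5 genes tested were at least 2-fold apart, against 7.54% of genes. Tnfrsf18 was lower in the knockout library at 0.430 (0.179–0.937), from 28 and 9 UMIs, and Cd69 higher at 2.54 (1.12–6.12), from 10 and 19 UMIs. At resolution 2, and with the receptor genes kept in the clustering, neither gene gave a value in this class. The Ramp1-led part, where Tnfrsf18 is found, made up 18 of 34 control and 14 of 36 knockout cells. Pdcd1 was lower at 0.561 (0.341–0.90). Within the Trdv4-led part 1 of 2 genes tested passed, against 7.88% of genes: Pdcd1, at 0.300 (0.169–0.510). The share of those cells with a Pdcd1 UMI after thinning was 53.3% (26.6–78.7) and 30.0% (11.9–54.3), and these intervals overlap. In the Ramp1-led part Tnfrsf18, with most of its UMIs there, had a ratio of 0.625 (0.243–1.44), and Icos of 0.757 (0.433–1.28). Pdcd1, with 2 and 7 UMIs too few to be among the genes tested, went the other way there, at 6.56 (1.25–64.8). Icos did not reach 2-fold in the class, at 1.05 (0.731–1.499).

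In the T-like cells as a whole 4 of 10 genes were at least 2-fold apart, against 10.3% of genes: Lag3 at 0.347 (0.267–0.447), Havcr2 at 0.404 (0.133–1.04) and Ctla4 at 0.184 (0.035–0.612) were lower in the knockout library and Cd69 higher at 2.28 (1.41–3.74). The make-up of the class moved with these values, since the Cd8-led part was 24 of 35 control and 8 of 38 knockout cells. Within the Cd8-led part 1 of 9 genes tested was 2-fold apart, against 14.6% of genes: Ctla4, at 0.388 (0.044–1.60). Lag3 there had a ratio of 0.862 (0.644–1.14) and Pdcd1 of 1.27 (0.943–1.69), while Tigit, at 1.82 (1.20–2.71), and Tnfrsf9, at 1.51 (1.12–2.02), were higher in the knockout library. Without the gene's UMIs in the cell that held most of them in each library, Tigit became 1.19, Tnfrsf9 0.936, Lag3 0.554 and Ctla4 0.228 in this part. Havcr2 in the whole class became 0.225. The other UMIs of those cells stayed in the totals, and 1 cell weighs more among 8 knockout than among 24 control cells. The part of this in the lower ratios was not tested. In the remainder 2 of 8 genes passed, against 11.3% of genes: Lag3 at 0.337 (0.16–0.692), and Icos at 2.18 (0.952–5.83). The Icos ratio became 0.539 without the Icos UMIs of the cell that held most of them in each library. Cd69 within the remainder had a ratio of 0.959 (0.567–1.67).

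The B-like cells had 2 genes with enough UMIs, and neither Cd69 nor Tnfrsf18, at 0.959 (0.518–1.78), reached 2-fold, against 6.23% of genes. Among cycling cells, which mix NK and Cd8 T cell markers, 2 of 8 genes tested were 2-fold apart, against 7.53% of genes: Icos at 0.497 (0.218–1.07) and Tnfrsf4 at 2.15 (1.22–3.91). The latter became 1.41, under 2-fold, without the Tnfrsf4 UMIs of the cell that held most of them in each library. Outside the lymphocyte classes, Cd69 passed in plasmacytoid dendritic-like cells (1 of 3 genes, against 6.27%) at 2.94 (1.31–7.02). Tnfrsf9 passed in macrophage-like cells (1 of 3, against 7.41%) at 2.03 (1.05–3.90). That ratio turned to 0.491 without the Tnfrsf9 UMIs of the cell that held most of them in each library.

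The genes whose levels most resembled those of a receptor gene were ranked over 23 class and library units and 9442 candidate genes by Pearson's r of log2(CPM + 10), as a description without a test, since the units share 2 libraries. For Pdcd1 these were Cd3e (0.976), Cd3g (0.958) and Cd3d (0.951), the CD3 chains of the T cell receptor. Lag3 ranked Cd8a (0.814) and Cd8b1 (0.808) first, and Tigit ranked Cd27 (0.882), Ctsw and Klrc1. Icos followed Cd3d (0.901), and Tnfrsf4 followed Dapl1 (0.889). For Tnfrsf9 the nearest were C1qtnf6 (0.943), Ppm1j and Serpinb9, for Tnfrsf18 D16Ertd472e (0.904) and Cst7, for Havcr2 Slc16a3 (0.862), for Ctla4 Lime1 (0.797) and for Cd69 Arhgap45 (0.848).

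In the genome build GRCm38.p6, Ctla4 (chr1:60909025-60915832) and Icos (chr1:60960773-61000322) are neighbours 44940 bases apart, and Tnfrsf4 (chr4:156013595-156016613) and Tnfrsf18 (chr4:156026322-156028894) lie 9708 bases apart. The neighbours overlapped in part in where they were found. Icos peaked in γδT17-like cells in both libraries. Ctla4 peaked in T-like cells in the control library (61.0 CPM) and in the Itga1 and Tnfsf10 NK-like set in the knockout library (41.4 CPM). It also stood at 41.4 and 23.8 CPM in γδT17-like cells, from 7 and 3 UMIs. Tnfrsf18 was present in NK-like cells where Tnfrsf4 had 0 and 1 UMIs. Pdcd1 (chr1:94038305-94052553) and Tnfrsf9 (chr4:150920155-150946104) had 203 and 196 UMIs in the control T-like cells and 1 each in the control B-like cells. To show the start regions of genes with such contrasts, the 150 bases before 4 of them (Pdcd1, Tnfrsf9, Tnfrsf4 and Tnfrsf18) are printed from RefSeq's promoter table (GRCm38.p6), 5′ to 3′ on the gene's strand, with capitals for GGAAA or its complement TTTCC, the core of the NFAT motif, a factor family that acts downstream of antigen receptors.
Pdcd1, chr1:94052554-94052703, minus strand: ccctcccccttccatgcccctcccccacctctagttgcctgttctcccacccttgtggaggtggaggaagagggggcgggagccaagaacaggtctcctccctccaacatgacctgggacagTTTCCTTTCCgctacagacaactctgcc
Tnfrsf9, chr4:150920005-150920154, plus strand: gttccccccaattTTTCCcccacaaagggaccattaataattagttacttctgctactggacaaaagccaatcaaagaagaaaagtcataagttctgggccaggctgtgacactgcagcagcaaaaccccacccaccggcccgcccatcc
Tnfrsf4, chr4:156013445-156013594, plus strand: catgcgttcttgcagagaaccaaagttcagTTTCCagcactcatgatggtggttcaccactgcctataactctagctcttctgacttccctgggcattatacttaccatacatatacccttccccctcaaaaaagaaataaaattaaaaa
Tnfrsf18, chr4:156026172-156026321, plus strand: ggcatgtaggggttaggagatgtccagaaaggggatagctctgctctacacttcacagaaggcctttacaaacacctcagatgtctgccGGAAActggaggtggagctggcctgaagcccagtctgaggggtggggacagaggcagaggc
The core occurred 2 times in the Pdcd1 window, as a pair of adjoining copies, and 1 time in each of the other printed windows, on either strand. It is short and common: 37.6% of 32851 promoter windows of this length held it. None of these 4 windows held the AP-1 motif TGANTCA, which 4.24% of all windows did. RefSeq's table gives Tnfrsf9 a second start, whose window (chr4:150927849-150927998) is not printed and held 1 copy of that motif and 1 of the NFAT core. The table matched 7 of the 10 genes, without Lag3, Icos and Cd69. The windows of Tigit, Ctla4 and Havcr2, which are not printed, held 2, 1 and 0 copies of the NFAT core.

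The partners of these receptors were counted from lists of ligands, other receptors, regulators, CD69 partners and signalling adaptors. Of 15 ligand genes, 6 had enough UMIs in granzyme-high NK-like cells, 4 in granzyme-low ones, 4 in T-like, 3 in γδT17-like and 8 in macrophage-like cells, and none of these was 2-fold apart between genotypes. The shares of all genes 2-fold apart in these classes were 3.41%, 6.21%, 10.3%, 7.54% and 7.41%, in that order. In B-like cells, where 6.23% of all genes were 2-fold apart, 4 of 9 were higher in the knockout library and none lower. They were Cd274, the PD-L1 gene, at 2.00 (1.10–3.79), Lgals3 at 2.69 (1.85–3.97), Tnfsf9, the ligand of 4-1BB, at 2.39 (1.12–5.55), and Cd80 at 2.04 (0.889–5.09). Cd86 had a ratio of 1.45 (1.03–2.08) and Icosl of 0.879 (0.568–1.36). The share of the second B-like cluster, 56 of 239 and 161 of 287 cells, moved with these values, and its part in them was not tested. B-like cells with a Gzmc or Cd3 UMI also differed in number, with 8 in the control and 74 in the knockout library. The ligand ratios were not recomputed without them. Lgals3 stood at 42.2 and 113 CPM in B-like cells and at 4787 and 4084 CPM in macrophage-like cells.

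Of the regulators, Nfatc1 was higher in knockout B-like cells at 3.05 (2.22–4.25) and Nr4a1, an immediate early gene, lower at 0.263 (0.126–0.508), 1 each way of 5 tested, against 6.23% of all genes. Batf, an AP-1 family factor, was the 1 of 7 regulators 2-fold apart in granzyme-low NK-like cells, at 3.39 (1.30–10.4), where 6.21% of all genes were. None of 9 passed in granzyme-high NK-like cells, against 3.41% of all genes. Klf2, which drives expression of the sphingosine-1-phosphate receptor that CD69 opposes, was higher in knockout T-like cells with 11 and 87 UMIs, a ratio of 10.7 (5.67–22.1), and all 87 knockout UMIs lay outside the Cd8-led part. Of the other receptors, none of 12 passed in granzyme-high and none of 11 in granzyme-low NK-like cells, and none of 3 in B-like cells. Of all genes, 3.41%, 6.21% and 6.23% did in these classes. In T-like cells 1 of 12 was higher, Il2ra at 6.74 (2.26–27.1), and 2 were lower, Cd226 at 0.490 (0.231–0.974) and Entpd1 at 0.317 (0.0776–0.972). These counts stand against 10.3% of all genes, in a class whose Cd8-led part was 24 of 35 and 8 of 38 cells. In γδT17-like cells Cd40lg, the CD40 ligand gene, was lower at 0.223 (0.0421–0.764), 1 of 6 tested, against 7.54% of all genes. Of the adaptors, Traf5 was the 1 of 8 that passed in T-like cells, at 2.25 (0.921–5.82), against 10.3% of all genes. None passed in granzyme-high (3.41% of all genes) or granzyme-low NK-like cells (6.21%), in γδT17-like (7.54%) or in B-like cells (6.23%). Outside the lymphocytes, 2 of 6 adaptors passed in macrophage-like cells, against 7.41% of all genes: Traf1 at 2.66 (1.85–3.85) and Traf5 at 2.05 (0.792–5.17). In plasmacytoid dendritic-like cells, against 6.27% of all genes, Klf2 passed at 2.10 (1.54–2.88) and Vsir at 2.12 (0.838–5.62).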

How the data were processed

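Single-cell 5′ expression libraries of tumour-infiltrating cells from 1 control and 1 knockout pool were analysed; the B cell receptor libraries served only to remove cells with 2 heavy chains. The authors deposited matrices of UMI counts for cell barcodes that passed their cell calling; the submitters' processing notes name Cell Ranger 6.0.0 and GRCm38. Reads of 24000 per cell for 1400 cells were targeted, per the labels' protocols.

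Barcodes with fewer than 200 genes or over 10% mitochondrial UMIs were removed (11 control and 23 knockout), then Scrublet calls (1 and 5) and barcodes with 2 heavy chains (0 and 6). The libraries shared 3 barcode sequences. Cells were clustered with Scanpy 1.11.5 (2000 variable genes, 30 components, 15 neighbours, Leiden resolution 1) without the receptor and immunoglobulin genes, and clusters were named from marker lists. NK-like cells were clustered again at resolution 0.5, and the T-like and γδT17-like parts come from resolution 2. UMIs were summed per class and library. With 1 library per genotype no test was made. The code was tested on simulated data.

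The members, markers and lists were chosen with earlier results of these data known. Named genes are the 10 receptors, their 3 nearest genes by pattern, and partners with enough UMIs, the most abundant or those 2-fold apart, the latter chosen after their values were seen. Alternatives were other filters, resolutions, thinning depths, UMI minimums and equal weighting of cells. Another left out a gene's UMIs in the cell that held most of them in each library. That cell's other UMIs stayed in the class total.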

Additional observations from a re-analysis of the deposited data

Results flagged for a closer look

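For 3 genes the knockout to control ratio lay on opposite sides of 1 in different classes, with intervals for counting error that left out 1; the difference between the classes was not tested, and each genotype is 1 library. Pdcd1 had ratios of 0.487 in granzyme-high NK-like, 0.561 in γδT17-like and 0.538 in T-like cells, and 1.99 in cycling cells. Within the T-like class, however, its ratio was 1.27 (0.943–1.69) in the Cd8-led part and 1.80 (0.579–7.38) in the remainder. Within the γδT17-like class it was 0.300 in the Trdv4-led part and 6.56 in the Ramp1-led part. Without cells holding Cd3 UMIs, granzyme-high NK-like cells held 18.3 CPM of Pdcd1 in control and 14.6 CPM in knockout. Tnfrsf9 had ratios of 2.06 in granzyme-low NK-like and 2.03 in macrophage-like cells, and 0.564 in cycling cells. For both Pdcd1 and Tnfrsf9 the opposite direction thus rests on the cycling cells, which mix NK and Cd8 T cell markers. The part of that mix in these ratios was not tested. The macrophage-like Tnfrsf9 ratio turned to 0.491 without the Tnfrsf9 UMIs of the cell that held most of them in each library. Cd69 had ratios of 1.56 in granzyme-high NK-like, 2.54 in γδT17-like, 2.28 in T-like and 2.94 in plasmacytoid dendritic-like cells, and 0.639 in B-like cells. Within the T-like remainder the Cd69 ratio was 0.959 (0.567–1.67), and the Cd8-led part had only 7 and 2 UMIs.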

How the results depend on the processing

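No paired analysis was possible because each genotype has 1 library. The number of receptor genes at least 2-fold apart by genotype was 1 in granzyme-high NK-like cells and became 0 without the barcode filter, at Leiden resolution 0.5, at resolution 2, with the receptor genes kept in the clustering, and without cells holding Cd3 UMIs. In granzyme-low NK-like cells 1 became 2 without the barcode filter and with a minimum of 10 UMIs, and 0 at resolution 0.5, with every cell weighted equally and without cells holding Cd3 UMIs (Tnfrsf9 at 1.88, from 2.06). In γδT17-like cells 2 became 1 (Pdcd1, at 0.300) at resolution 2 and with the receptor genes kept in the clustering, where the class was led by Trdv4 and Tnfrsf18 and Cd69 gave no value. In B-like cells 0 became 1 with a minimum of 10 UMIs. In T-like cells the count ranged from 4 to 6. The macrophage-like Tnfrsf9 ratio reversed to 0.491 without the Tnfrsf9 UMIs of the cell that held most of them in each library. Leaving out cells with Cd3 or Gzmc UMIs was chosen after seeing the data. The causes of these moves were not tested. Of the ratios in whole classes, 337 stayed within their main interval and 22 moved out of it. Of the 337, 51 came from the minimum of 10 UMIs, a setting that cannot change a ratio. The macrophage-like Tnfrsf9 ratio was the 1 that was 2-fold apart and changed direction; ratios nearer 1 also crossed it, such as Icos in T-like cells at 0.522. The parts of the T-like and γδT17-like classes are not in these counts. Of levels, 643 stayed and 98 moved. Of detection shares, 252 stayed and 135 moved. Cell number limits the Cd8-led part, with 8 knockout cells, and a class without a UMI can still hold several CPM.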

Other observations

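Receptors of the set were also found outside lymphocytes. Lag3 had 124 and 88 UMIs in plasmacytoid dendritic-like cells, 420 and 438 CPM, with a ratio of 1.04 (0.784–1.38). Havcr2, which macrophages are known to carry, stood at 126 and 162 CPM in macrophage-like cells. Cd69 reached 741 and 940 CPM in mast cell or basophil-like cells, the highest level of any class in both libraries.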
